A study of Mus musculus with 12 samples.

Results

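Cell cycle and proliferation genes were examined in the adrenal glands of 21-week-old male C57Bl/6J mice. The list held 42 genes that act in DNA replication and cell division, and 29 of them were tested among 15900 genes. A gene was taken at its probe set with a single gene symbol and the highest mean signal. Of the other members, Mki67 and Cdca8 had a mean signal under 6 on the log2 scale in every pool and were not tested. Birc5 and Kif20a reached 6 only in ASP+CGP, so that they entered the test through the pool where they were highest, and counts are also given for the other 27. Top2a was measured only on 2 probe sets shared with Hibadh, and Ccne2, Ccnb1, Bub1, Cenpe, Cenpf, Kif11, Tpx2, Nusap1, Kif23 and Prc1 were not analysed here.

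There were 4 pools of RNA, each hybridised to 3 arrays (Affymetrix Mouse Gene 1.0 ST). ASP mice received the sweetener aspartame (46 mg per kg body weight) in the drinking water, with exposure beginning before birth through the mother. CGP mice received CGP 39551 (5 mg per kg), a competitive antagonist of the NMDA type of glutamate receptor, from conception to postnatal day 28. ASP+CGP mice received both, and CON mice neither. As the arrays of a group repeat 1 pool, the p-values measure the spread between arrays and not between mice. In whole glands, fewer dividing cells and less RNA per cell cannot be told apart.

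Before a cell divides, the MCM helicase is loaded onto replication origins, deoxynucleotides are made and the DNA is copied with the sliding clamp PCNA. Cyclin-bound CDK1 and the Polo and Aurora kinases then drive mitosis, and the anaphase-promoting complex (APC/C) ends it by marking cyclins and securin for destruction. Genes of the S phase are controlled largely by E2F factors, whereas many mitotic genes are controlled through the B-MYB (Mybl2), FOXM1 and DREAM complexes. The adult adrenal gland turns over slowly, with new cortical cells arising mostly beneath the capsule.

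The promoters of Mcm2, Mcm3, Pcna, Cenpa, Mybl2 and Birc5, each called in at least 1 comparison, are shown because E2F and DREAM-type control acts through short elements near the start of transcription. Of the 29 members, 23 had a promoter entry in RefSeq (GRCm38.p6), and the 150 bases before the start were searched on both strands. An E2F site (TTTGGCGC, TTTGCCGC, TTTCGCGC or TTTCCCGC) was found in 4 of the 23 (17.4%), against 1.26% of 27025 promoters. The cell cycle homology region core TTTGAA was found in 4 (17.4%), against 9.24% of all promoters. The CCAAT box, bound by NF-Y, was found in 17 of the 23 (73.9%), against 25.3% of all promoters. These elements are given as matches of letters and not as sites of binding. The stretches below run 5′ to 3′ along the gene, with matches on either strand in capitals (ATTGG is CCAAT on the other strand), at chr6:88898781-88898930 (- strand), chr1:20820313-20820462 (- strand), chr2:132253181-132253330 (- strand), chr5:30666736-30666885 (+ strand), chr2:163054485-163054634 (+ strand) and chr11:117849087-117849236 (+ strand).
Mcm2: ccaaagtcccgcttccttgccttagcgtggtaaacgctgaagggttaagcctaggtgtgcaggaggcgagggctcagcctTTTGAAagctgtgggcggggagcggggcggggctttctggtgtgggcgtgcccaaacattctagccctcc
Mcm3: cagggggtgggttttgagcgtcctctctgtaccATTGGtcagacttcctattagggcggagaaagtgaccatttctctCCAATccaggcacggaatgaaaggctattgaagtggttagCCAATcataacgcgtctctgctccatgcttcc
Pcna: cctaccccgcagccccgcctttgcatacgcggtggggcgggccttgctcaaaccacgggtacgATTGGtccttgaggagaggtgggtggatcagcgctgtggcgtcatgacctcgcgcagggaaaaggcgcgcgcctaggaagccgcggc
Cenpa: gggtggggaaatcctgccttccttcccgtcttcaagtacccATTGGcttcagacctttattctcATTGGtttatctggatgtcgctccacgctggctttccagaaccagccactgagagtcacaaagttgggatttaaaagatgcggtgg
Mybl2: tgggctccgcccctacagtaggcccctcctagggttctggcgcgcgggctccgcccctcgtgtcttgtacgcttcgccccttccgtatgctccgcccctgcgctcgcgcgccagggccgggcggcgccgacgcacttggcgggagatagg
Birc5: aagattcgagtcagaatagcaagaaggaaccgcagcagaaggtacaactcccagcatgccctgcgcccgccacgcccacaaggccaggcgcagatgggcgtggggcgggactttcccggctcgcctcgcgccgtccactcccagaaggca
Mcm3 carried 3 CCAAT boxes, Cenpa 2 and Pcna 1, while Mcm2 carried TTTGAA 70 bases before the start, and none of the searched letters lay in the Mybl2 and Birc5 stretches.

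The tissue identity of the arrays was checked first. The cortical 11-beta-hydroxylase gene Cyp11b1 averaged 13.81 in ASP, 13.87 in CGP, 13.91 in ASP+CGP and 13.90 in CON, and the chromaffin granule gene Chga 13.45, 13.55, 13.62 and 13.60 in the same order. The summed linear signal of 10 neuronal markers was 17890 to 18798 on the ASP arrays, against 4246 to 4409 on the CON arrays, with 10 of 10 called higher. That of 9 oligodendrocyte markers was 9746 to 10632 in ASP, against 2055 to 2093 in CON, with 9 of 9 called higher. The sum of 10 cortical markers was 76420 to 78604 in ASP, against 88583 to 89899 in CON. Of these 10, 3 were called lower in ASP (8.13% of all genes), Cyp11b2 (-0.67), Fdx1 (-0.55) and Nr5a1 (-0.53), and 0 higher (9.81%). Of 9 chromaffin markers, 1 was called lower, Slc18a1 (-0.74), and 1 higher, Penk (1.08). Sums were also lower in ASP for chromaffin (47790 to 48976, against 57075 to 57759 in CON), capsule (9368 to 10044 against 11978 to 12530), macrophage (6730 to 6966 against 8742 to 9023), erythroid (637 to 667 against 935 to 1019), endothelial (8609 to 8928 against 12185 to 12470), fat (23604 to 24163 against 25023 to 25653) and hepatocyte markers (19032 to 19326 against 27807 to 28676). In CGP the hepatocyte sum was 39034 to 40780, with 6 of 9 markers called higher, and in ASP+CGP it was 14567 to 15819. The part of these markers in the values of the cell cycle genes was not tested. Arrays of a pool correlated at 0.989 to 0.995, and the interquartile range of the genes tested was 2.22 to 2.31 in ASP, 2.36 to 2.48 in CGP, 1.91 to 2.03 in ASP+CGP and 2.35 to 2.40 in CON.

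Mki67 and Cdca8 were close to the bottom of the measured range, whereas Pcna averaged 10.11 and Mcm2 8.97 over the 12 arrays. Mki67, the marker most used to count dividing cells, read 5.35, 5.32 and 5.43 in ASP, 5.41, 5.40 and 5.95 in CGP, 6.06, 5.66 and 5.90 in ASP+CGP, and 5.53, 5.50 and 5.54 in CON. All 3 ASP arrays lay below CON and all 3 ASP+CGP arrays above it, by distances that were not tested. Of all genes tested, 43% had all ASP arrays below CON and 22.8% had all ASP+CGP arrays above it. The Mki67 mean was 5.88 in ASP+CGP and 5.53 in CON. Genes tested with mean signals under 6 had a median difference of 0.30 between these 2 pools. Those genes had passed the filter through a pool that reached 6, which Mki67 did not, so the 0.30 is not a like reference for it. Cdca8, a subunit of the chromosomal passenger complex, averaged 5.58 in ASP, 5.78 in CGP, 5.95 in ASP+CGP and 5.81 in CON. The DNA topoisomerase gene Top2a could not be separated from Hibadh, and neither shared probe set was called in any comparison.

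**Figure D1:**
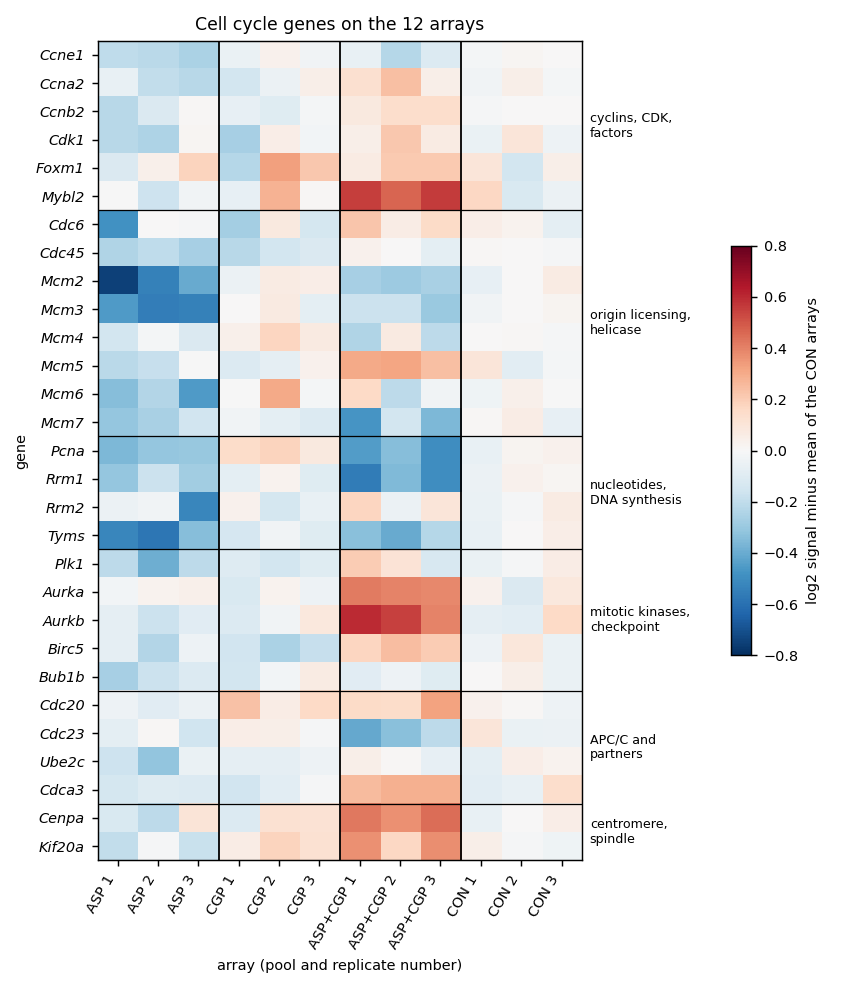
Each row is 1 of the 29 cell cycle genes and each column 1 of the 12 arrays, ordered ASP, CGP, ASP+CGP and CON, and the colour is the log2 signal minus the mean of the 3 CON arrays. Mcm2, Mcm3 and Tyms are blue in ASP, while Mybl2, Aurka, Aurkb and Cenpa have their highest values, in red, in ASP+CGP.

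The first comparison, ASP against CON, asked what aspartame alone did to these genes. A call needed both a limma adjusted p below 0.05 and a 1.4-fold difference or more. By that rule 2 of 29 members were lower in ASP (8.13% of all genes tested were called lower) and 0 were higher (9.81% of all genes). The share of lower members was near that of all genes. The 2 lower members were both subunits of the replicative helicase. The median difference of the members was -0.16 log2, beside -0.10 over all genes.

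Mcm2 (probe set 10546163, Entrez 17216) read 8.43, 8.64 and 8.77 in ASP, against 9.11, 9.18 and 9.24 in CON. The groups did not overlap, and the gene fell by 0.56 ± 0.08 log2 (SE, n = 3 arrays per pool, limma adjusted p = 1.85e-05). Without ASP array 1 the difference was -0.47, under the fold minimum. Mcm3 (probe set 10353420, Entrez 17215) read 6.43, 6.33 and 6.34 in ASP, against 6.85, 6.89 and 6.91 in CON. It fell by 0.51 ± 0.06 log2 (limma adjusted p = 4.55e-06).

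The other 4 MCM subunits, Mcm4 to Mcm7, differed by between -0.34 and -0.09 log2 in ASP and were not called. The genes of deoxynucleotide supply and DNA synthesis also had negative differences, with 0 of 4 called, and so had 10337 of all 15900 genes. Tyms, thymidylate synthase, read 7.04, 6.98 and 7.22 in ASP, against 7.51, 7.57 and 7.62 in CON, a difference of -0.48 ± 0.07 log2 just short of the fold minimum (limma adjusted p = 4.23e-05). Pcna differed by -0.32 ± 0.06 and Rrm1, the large subunit of ribonucleotide reductase, by -0.25 ± 0.07.

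Of the mitotic genes, Plk1, the Polo kinase of mitotic entry, differed by -0.27 ± 0.08 in ASP (limma adjusted p = 0.0101) and the checkpoint gene Bub1b by -0.18 ± 0.06, both under the fold minimum. Aurka, an Aurora kinase of the spindle poles, differed by 0.01 ± 0.06, Aurkb, that of the chromosomal passenger complex, by -0.11 ± 0.08, and Cenpa, the centromeric histone H3 variant, by -0.07 ± 0.08. At an adjusted p under 0.05 with no fold minimum, 12 members (41.4%) were lower in ASP and 0 higher, beside 37.7% and 17.6% of all genes. The share of lower members was thus near that of all genes. On 14 members all ASP arrays lay below all CON arrays, and on 0 above, beside 43% and 20.6% of all genes.

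**Figure D2:**
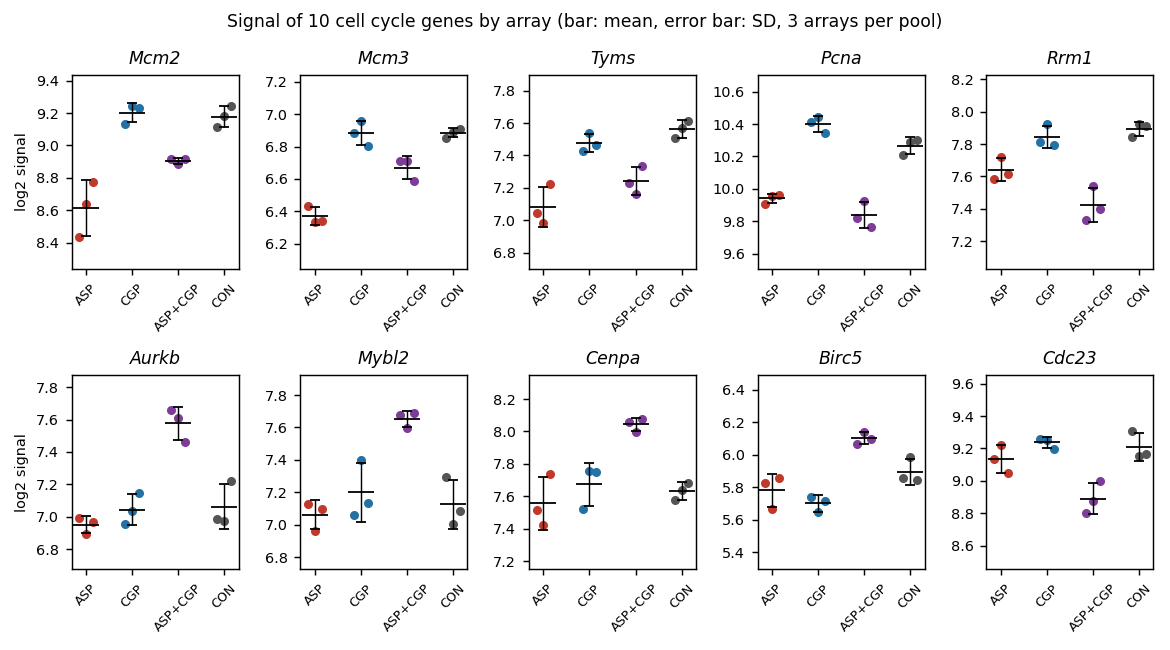
Log2 signal (vertical axis, each panel spanning 1.2 log2 units) of 10 genes on the 3 arrays of the ASP, CGP, ASP+CGP and CON pools. Points are arrays, the long dash is the mean and the error bar the SD. Mcm2, Mcm3 and Tyms are lowest in ASP, Pcna and Rrm1 are lowest in ASP+CGP, and Aurkb, Mybl2, Cenpa and Birc5 are highest in ASP+CGP.

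CGP against CON asked what developmental NMDA receptor antagonism alone did. None of the 29 members was called (0 higher and 0 lower, beside 1.62% and 0.0189% of all genes), and 4 had an unadjusted limma p under 0.05. With no fold minimum the counts were also 0 and 0, beside 2.81% and 0.208% of all genes. Differences ran from -0.20 for Birc5, the survivin gene, to 0.15 for Cdc20, the APC/C activator. On 4 members all CGP arrays lay above CON and on 4 below (3 and 3 without Birc5 and Kif20a), beside 10.1% and 6.35% of all genes. Pcna read 10.41, 10.44 and 10.35 in CGP, against 10.21, 10.29 and 10.30 in CON, a difference of 0.14 ± 0.06 log2 (limma adjusted p = 0.439).

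ASP+CGP against CON asked what the combined exposure did. Here 2 of 29 members were higher (6.09% of all genes) and 0 lower (8.32% of all genes), so that the share of higher members was near that of all genes. The median difference was 0.07 log2 for the members (0.06 without Birc5 and Kif20a) and -0.17 over all genes.

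Aurkb (probe set 10377405, Entrez 20877) read 7.66, 7.61 and 7.46 in ASP+CGP, against 6.99, 6.98 and 7.22 in CON. It rose 1.43-fold (0.51 ± 0.08 log2, limma adjusted p = 8.31e-05). Without ASP+CGP array 1, CON array 1 or CON array 2 its difference was 0.47, 0.48 or 0.47, under the fold minimum. Mybl2 (probe set 10478355, Entrez 17865), which encodes the B-MYB factor of late S phase and G2, read 7.68, 7.59 and 7.69 in ASP+CGP, against 7.29, 7.003 and 7.08 in CON. It rose 1.44-fold (0.53 ± 0.09 log2, limma adjusted p = 2.03e-04), and the difference was 0.46 without CON array 2.

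Several other mitotic genes lay above CON without reaching the fold minimum. Cenpa (probe set 10520521, Entrez 12615) read 8.06, 7.998 and 8.08 in ASP+CGP, against 7.58, 7.64 and 7.68 in CON (0.41 ± 0.08 log2, limma adjusted p = 5.84e-04). Aurka differed by 0.40 ± 0.06 (limma adjusted p = 1.05e-04) and Cdca3, a trigger of mitotic entry, by 0.27. Of the 8 licensing and helicase genes 6 had negative differences, Mcm5 (0.29 ± 0.07) being 1 of the exceptions, and so had 3 of the 4 DNA synthesis genes. Among all 15900 genes tested, 10469 had negative differences here. Rrm1 read 7.33, 7.54 and 7.40 in ASP+CGP, against 7.84, 7.92 and 7.91 in CON (-0.47 ± 0.07 log2, limma adjusted p = 4.86e-05). Pcna read 9.82, 9.93 and 9.77 in ASP+CGP, against 10.21, 10.29 and 10.30 in CON (-0.43 ± 0.06 log2, limma adjusted p = 3.91e-05).

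Cdc23 (probe set 10458164, Entrez 52563), an APC/C subunit, read 8.80, 8.88 and 8.997 in ASP+CGP, against 9.31, 9.15 and 9.16 in CON. The groups did not overlap and the difference was -0.32 ± 0.07 log2 (limma adjusted p = 9.48e-04), under the fold minimum. After cyclic loess scaling, which removes trends with signal level, it was -0.01. In ASP it read 9.13, 9.22 and 9.05, which overlapped CON (-0.08 ± 0.07, limma adjusted p = 0.368, and 0.10 after cyclic loess). In CGP it differed by 0.03 ± 0.07.

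With no fold minimum, 9 members (31%) were higher and 8 (27.6%) lower in ASP+CGP at an adjusted p under 0.05 (7 and 8 without Birc5 and Kif20a), beside 22.3% and 50.4% of all genes. The 9 higher members had mean signals of 5.79 to 7.84, and the 8 lower members 6.70 to 10.11. All ASP+CGP arrays lay above all CON arrays on 11 members and below on 8 (9 and 8 without Birc5 and Kif20a), beside 22.8% and 52.5% of all genes.

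The difference from CON in ASP+CGP moved with signal level, falling up to the 9 to 10 range and turning back above it. The median difference from CON over all genes was 0.30 for mean signals under 6, 0.24 at 6 to 7, -0.06 at 7 to 8, -0.26 at 8 to 9, -0.34 at 9 to 10, -0.32 at 10 to 11 and -0.20 at 11 and over. In ASP the same medians were 0.0038, -0.02, -0.08, -0.15, -0.18, -0.17 and -0.14. Genes with mean signals under 6 were tested only if some pool reached 6. Their medians therefore depend in part on the filter, here and in the later comparisons. Mybl2, Aurkb and Cenpa lay 0.58, 0.57 and 0.47 log2 above the median of genes of their level in ASP+CGP, and Mcm5 0.34 above. Mcm3 and Rrm1 lay 0.46 and 0.41 below it, and Pcna 0.11 below. Among other mitotic genes, Cdca3 and Aurka lay 0.33 and 0.16 above it. Bub1b, Plk1, Cdk1 and Ccnb2 lay 0.32, 0.18, 0.13 and 0.12 below it. In ASP, Mcm3, Mcm2 and Tyms lay 0.50, 0.41 and 0.40 below the median of their level. In ASP+CGP the median fell steeply across the 7 to 8 range, and Aurkb (7.16) and Mybl2 (7.26) lay at its low end. Their distances of 0.57 and 0.58 may therefore be overstated. After cyclic loess scaling, which removes trends with signal level, their differences from CON were 0.45 and 0.48. The same limit applies to the 7 to 8 range in the later comparisons.

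**Figure D3:**
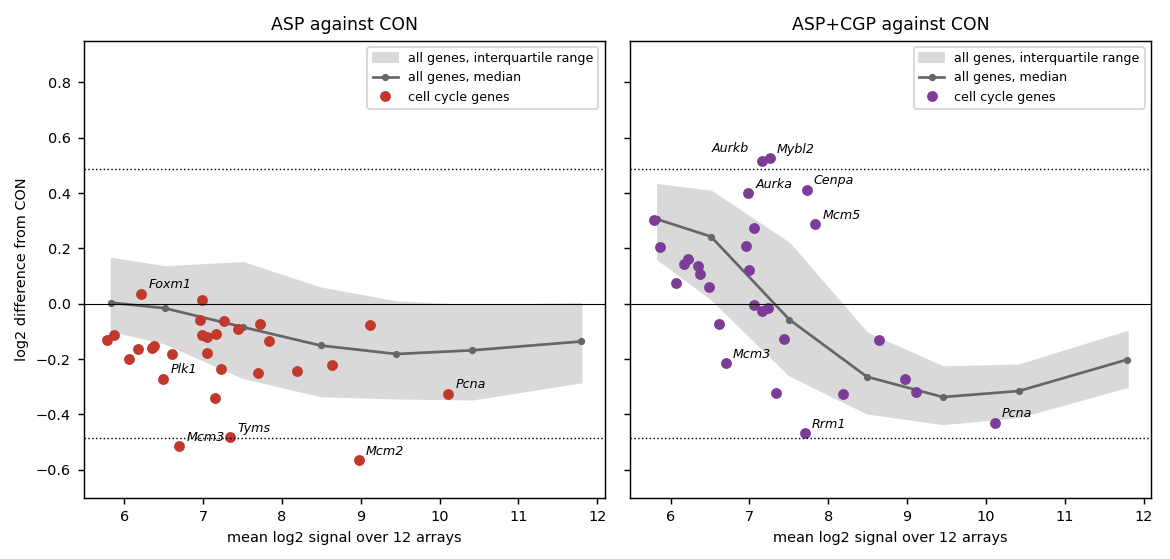
Difference from CON (log2, vertical axis) against the mean log2 signal over 12 arrays for the 29 cell cycle genes, for ASP on the left and ASP+CGP on the right. The grey line and band are the median and interquartile range of all genes by level, and dotted lines mark 1.4-fold. Aurkb and Mybl2 sit above the upper dotted line in ASP+CGP, and Mcm2 and Mcm3 below the lower one in ASP.

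ASP+CGP against ASP asked whether the antagonist altered these genes in aspartame-exposed mice. Of 29 members, 3 were higher (6.55% of all genes) and 0 lower (13.3% of all genes). Aurkb rose 1.54-fold (0.62 ± 0.08 log2, limma adjusted p = 1.06e-05), with 6.99, 6.89 and 6.97 on the ASP arrays. Mybl2 rose 1.51-fold (0.59 ± 0.09, limma adjusted p = 7.47e-05), with 7.12, 6.96 and 7.10 in ASP. Cenpa rose by 0.49 log2 (± 0.08, limma adjusted p = 1.67e-04), with 7.51, 7.42 and 7.74 in ASP, and lost its call when ASP array 1 or 2, or ASP+CGP array 1 or 3, was left out (0.46, 0.42, 0.48 and 0.47).

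The 3 genes encode a kinase, a transcription factor and a centromere histone. With no fold minimum, 20 members (69%) were higher and 2 (6.9%) lower in ASP+CGP than in ASP (18 and 2 without Birc5 and Kif20a), beside 30% and 33.1% of all genes. All ASP+CGP arrays lay above all ASP arrays on 19 members and below on 2 (17 and 2 without Birc5 and Kif20a), beside 30.7% and 34.6% of all genes. The difference between these pools also moved with signal level. At mean signals of 6 to 7 the median was 0.27 for 11 members and 0.24 over all genes. At 7 to 8 it was 0.31 for 11 members and 0.04 over all genes. Over all genes it was 0.30 under 6 and -0.10 at 8 to 9.

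ASP+CGP against CGP asked what aspartame did in mice that had the antagonist. Of 29 members, 1 was higher and 1 lower (8.57% and 11% of all genes). Aurkb rose 1.45-fold (0.53 ± 0.08 log2, limma adjusted p = 5.10e-05), against 6.95, 7.04 and 7.15 on the CGP arrays, and was no longer called without CGP array 1, where it lay just under the fold minimum. Pcna (probe set 10487930, Entrez 18538) fell by 0.56 ± 0.06 log2 (limma adjusted p = 3.44e-06), and its ASP+CGP arrays lay below all CGP arrays. A second Pcna probe set (10461391) gave -0.59 ± 0.06 (limma adjusted p = 2.69e-05). With no fold minimum 11 members (37.9%) were higher and 8 (27.6%) lower (9 and 8 without Birc5 and Kif20a), beside 23.8% and 51.8% of all genes. The arrays separated upwards on 9 members and downwards on 8 (8 and 8 without Birc5 and Kif20a), beside 23.1% and 52.2% of all genes. At mean signals of 6 to 7 the median was 0.18 for 11 members and 0.26 over all genes. At 7 to 8 it was 0.15 for 11 members and -0.06 over all genes.

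The interaction compared the aspartame difference with the antagonist (ASP+CGP minus CGP) with that without it (ASP minus CON). Of 29 members, 3 had a called positive interaction (9.02% of all genes) and 0 a negative one (15.5% of all genes). It was 0.64 ± 0.11 log2 for Aurkb (limma adjusted p = 3.13e-04), 0.52 ± 0.09 for Birc5 (limma adjusted p = 3.80e-04) and 0.52 ± 0.13 for Mybl2 (limma adjusted p = 0.00441). Birc5 (probe set 10382998, Entrez 11799), a partner of Aurora B in the chromosomal passenger complex, read 5.83, 5.66 and 5.86 in ASP, 5.74, 5.64 and 5.71 in CGP, 6.07, 6.14 and 6.10 in ASP+CGP, and 5.85, 5.99 and 5.85 in CON. As its mean was under 6 in every pool except ASP+CGP, which brought it into the test, its interaction rests on 3 pools under the floor, and 2 of the other 27 members had a called interaction. With no fold minimum 15 members (51.7%) had a positive interaction and 2 (6.9%) a negative one (13 and 2 without Birc5 and Kif20a), beside 21.9% and 29.5% of all genes. The interaction moved with signal level as well. At mean signals of 6 to 7 its median was 0.33 for 11 members and 0.25 over all genes. At 7 to 8 it was 0.38 for 11 members and 0.02 over all genes. Over all genes it was 0.32 under 6 and -0.12 at 8 to 9. The Birc5 call was lost without ASP array 2 or CON array 2 (0.46 and 0.47), and that of Mybl2 without ASP array 2, CGP array 1, CGP array 3 or CON array 1 (0.43 to 0.49).

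Every called difference fell under the fold minimum after cyclic loess scaling, with the sign kept. Mcm2 and Mcm3 in ASP were then -0.39 and -0.46, and Aurkb and Mybl2 in ASP+CGP against CON 0.45 and 0.48, with limma adjusted p between 5.12e-05 and 0.00142 for these 4. Pcna in ASP+CGP against CGP was -0.25. By the same scaling Mcm2 in ASP+CGP against CON was 0.02, beside -0.27 on the deposited values, and Birc5 -0.03, beside 0.21. So scaled, calls were 0 in either direction for the members in each of the 6 comparisons. Over all genes they were 12.1% higher and 3.01% lower in ASP against CON, 1.64% and 0.0189% in CGP against CON, 4.28% and 3.09% in ASP+CGP against CON, 3.08% and 12.8% in ASP+CGP against ASP, 5.16% and 5.04% in ASP+CGP against CGP, and 4.61% and 15.1% for the interaction.

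Members that passed an adjusted p of 0.05 with no fold minimum after cyclic loess were fewer than on the deposited values in every comparison except CGP against CON. In ASP against CON they were 0 higher and 6 lower (27.1% and 22.5% of all genes), the 6 being Mcm2, Mcm3, Tyms, Pcna, Cdc45 and Plk1. In CGP against CON they were 0 and 0 (3.11% and 0.333%). In ASP+CGP against CON they were 6 higher, Aurka, Aurkb, Cdca3, Cenpa, Mcm5 and Mybl2, and 5 lower, Bub1b, Mcm3, Pcna, Rrm1 and Tyms (21.3% and 22.8%). They were 8 and 1 in ASP+CGP against ASP (25.3% and 31.5%), 6 and 6 in ASP+CGP against CGP (22.5% and 26.1%), and 9 and 1 for the interaction (17.6% and 27.9%). As shares of the 29 members these were 20.7% lower in ASP, 20.7% higher and 17.2% lower in ASP+CGP against CON, 27.6% and 3.45% against ASP, 20.7% and 20.7% against CGP, and 31% and 3.45% for the interaction.

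**Figure D4:**
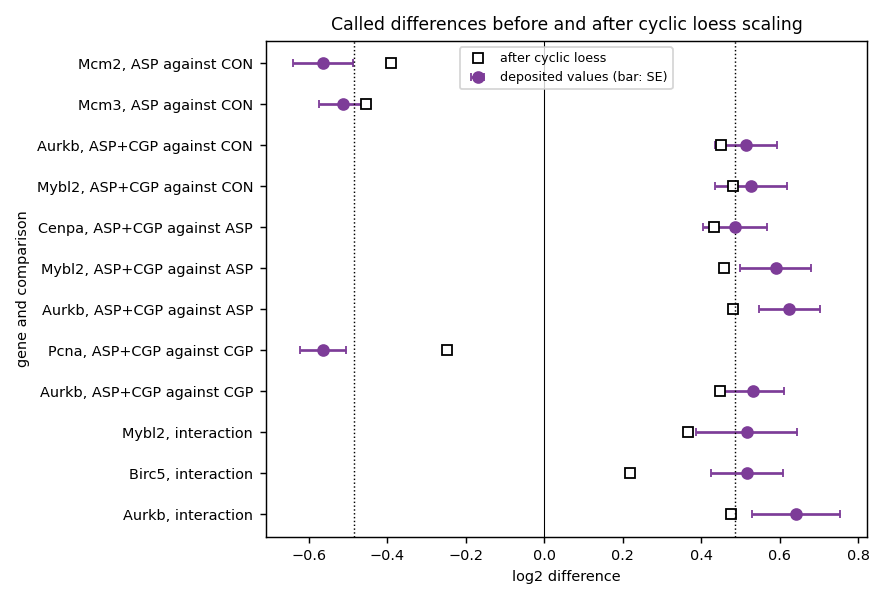
The 12 called differences (log2, horizontal axis), with the deposited values as filled circles and SE bars and the values after cyclic loess scaling as open squares. Dotted lines mark 1.4-fold, and all 12 squares lie between them.

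Further cell cycle lists are read against the shares of all genes called lower in ASP (8.13%) and in ASP+CGP (8.32%), and higher in these (9.81% and 6.09%). The shares called lower were larger at higher signal levels. At mean signals of 7 to 8, 8 to 9, 9 to 10 and 10 to 11 they were 8.48%, 10.5%, 11.3% and 11.8% in ASP. In ASP+CGP they were 6.62%, 12.4%, 14.9% and 11.4% at the same levels. Of 12 G1 genes, 4 were lower in ASP (Ccnd3, a D-type cyclin, by -0.52 log2, Myc by -0.51, Cdk2 by -0.50 and Mycn by -0.49) and 2 in ASP+CGP (Myc by -0.55 and Cdk7, the CDK-activating kinase, by -0.54). Their median was -0.36 in ASP, the lowest of the cell cycle lists described here. Marker lists had medians on both sides of it, such as -0.23 for cortical and -0.56 for endothelial markers. Of 18 inhibitors, 2 were lower in ASP (Gadd45b by -0.65 and Cdkn1c, the p57 inhibitor, by -0.54) and 3 in ASP+CGP (Gadd45b by -0.67, Btg1 by -0.61 and the retinoblastoma gene Rb1 by -0.55). None of the 18 was called higher in either.

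The same shares of all genes (8.13% lower in ASP, 8.32% lower and 6.09% higher in ASP+CGP) apply to the lists of factors, APC/C and replication genes. So do the shares by level, as E2f4, Anapc2, Gins4, Cdc26 and Pold3 averaged 9.995, 9.43, 8.92, 8.64 and 8.37 in CON. Among 15 E2F and DREAM genes, E2f4 was lower in ASP (-0.53) and in ASP+CGP (-0.50), and Mybl1 was lower in ASP+CGP (-0.49). Of 15 further APC/C genes, 0 were called in ASP, and Anapc2 and Cdc26 were lower in ASP+CGP (both -0.64). Of 30 further replication genes, Pola2, a DNA polymerase alpha subunit, was lower in ASP (-0.54). In ASP+CGP, Gins4 (-0.60) and Pold3 (-0.52) were lower and Uhrf1, which maintains DNA methylation, was at least 1.12-fold higher with the CON mean set to the floor of 6 (limma adjusted p = 2.68e-04). Uhrf1 reached 6 in ASP+CGP alone and so entered the test through that pool. CGP against CON gave 0 calls in every one of these lists.

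Of 28 further mitosis genes, 2 were higher in ASP (9.81% of all genes), and both also have roles in the nervous system. Anln, the cytokinesis protein anillin, which also builds septin filaments in central myelin, was at least 1.61-fold higher with the CON mean set to 6 (limma adjusted p = 9.79e-09), and it entered the test through ASP, the only pool where it reached 6. Zwint, a kinetochore protein that is also abundant in neurons, was 2.01-fold higher (1.01 ± 0.05, limma adjusted p = 2.82e-10). Neuronal and oligodendrocyte marker sums were higher on the same arrays, and their part in these 2 results was not tested. In ASP+CGP against CON, Zwint was lower (-0.49). It averaged 10.81 in CON, and all genes with mean signals of 10 to 11 had a median of -0.32 there. The neuronal sum in ASP+CGP was 3856 to 4203. Of the 10 neuronal markers 2 were called higher and 0 lower (6.09% and 8.32% of all genes), with a median of 0.04 log2. Outside mitosis, the stress-induced Polo-like kinase Plk3 was lower in ASP (-0.90) and in ASP+CGP (-1.05), and Plk2 was lower in ASP+CGP (-0.59). Plk5, a brain-rich member without kinase activity in mouse, was higher in both (0.50 and 0.52). Plk5 averaged 6.59 in CON, and all genes with mean signals of 6 to 7 had a median of 0.24 in ASP+CGP against CON.

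**Figure D5:**
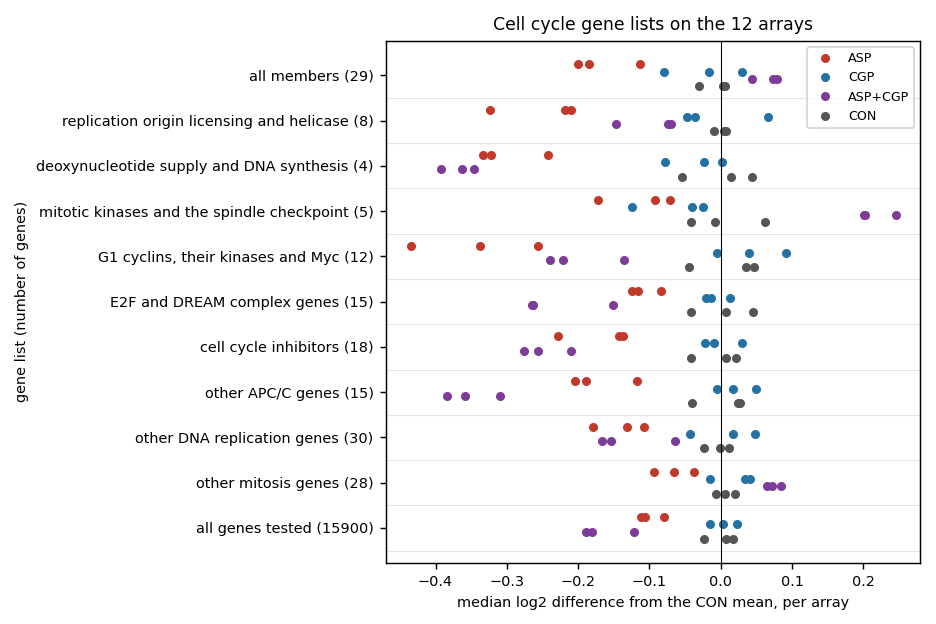
Median log2 difference from the CON mean on each array (horizontal axis) for the 29 cell cycle genes, 3 of their role groups, 6 further cell cycle lists and all 15900 genes, with 3 points per pool. The DNA synthesis genes lie at -0.33 to -0.24 in ASP and -0.39 to -0.35 in ASP+CGP, while the mitotic kinases lie at -0.17 to -0.07 in ASP and 0.20 to 0.25 in ASP+CGP.

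By role, helicase and licensing genes had array medians of -0.32 to -0.21 in ASP and -0.15 to -0.07 in ASP+CGP, relative to CON. The mitotic kinase and checkpoint genes lay at 0.20 to 0.25 in ASP+CGP, and 4 of these 5 had mean signals under 7, where all genes had positive medians. After cyclic loess the median of the 5 was -0.03, beside 0.21 on the deposited values, with 3 of 5 below CON. Aurkb and Aurka lay 0.57 and 0.16 above the median of genes of their level, and Plk1, Birc5 and Bub1b 0.18, 0.10 and 0.32 below it. The limits given above for medians by level apply here too. Lymphocyte markers were also higher on these arrays, with a summed signal over 4 T and NK cell genes of 479 to 537 in ASP+CGP, against 399 to 436 in CON, and over 4 B cell genes of 417 to 450 against 340 to 370. Their median differences were 0.265 and 0.24 log2, beside 0.24 over all genes with mean signals of 6 to 7. Of the T and NK cell genes 0 were called higher, and of the B cell genes 1 (6.09% of all genes). The part of these markers in the mitotic gene values was not tested.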

How the data were processed

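Deposited by the authors were log2 signals of probe sets, computed with RMA in Partek (version not given in the labels) from 12 arrays, each group being 1 RNA pool on 3 arrays. RMA equalises the arrays by quantiles and compresses low signals. Of 26533 probe sets, 17710 had 1 gene symbol, 1077 several and 7746 none, which gave 16244 genes, and 344 with a mean under 6 in every pool were left out. The array medians lay between 7.84 and 7.94. Precision is limited by the number of arrays, which have no read depth.

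A group-means model was fitted over all 12 arrays in limma 3.58.1 (R 4.3.3, data.table, version 1.17.8), with Benjamini-Hochberg adjustment over 15900 genes in each of 6 comparisons and the 1.4-fold minimum of the study's methods. Promoters were searched with Python 3.11.15 and pandas 2.3.3. The steps were tested on simulated data. The members, lists and alternatives were chosen with earlier results of these data known. Every member could be named, with full values for called members and Cdc23, and pathway genes were the called ones with the largest differences, up to 4 per list. The replication-dependent histone list had no gene measured on a single-gene probe set. Of marker lists not described with the results, the astrocyte sum was 7787 to 8406 in ASP, 3621 to 3777 in CGP, 2477 to 2654 in ASP+CGP and 3222 to 3378 in CON, and that of oligodendrocyte precursors 4824 to 5116, 4272 to 4567, 3912 to 4255 and 4692 to 5014 in the same order. The precursor sums hide differences of single genes. In ASP against CON, 5 of the 8 were called higher and 1 lower (9.81% and 8.13% of all genes), with a median of 0.72 log2. The lower gene was C1ql1 (-0.65), which averaged 11.61 in CON.

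Alternatives covered the filter, scaling, array weights, fold minimum, replicate block, arrays in the fit and leaving out each array.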

Additional observations from a re-analysis of the deposited data

Results flagged for a closer look

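The interaction term of the limma fit was called for Aurkb (0.6417 log2) and Mybl2 (0.5164), with 1 RNA pool per group. Its p-values measure the spread between arrays and not between mice. Of 29 members 3 were called, beside 9.02% of all genes. The Mybl2 call held in 8 of 12 fits that each left out 1 array. Birc5 gave 0.5166, but it entered the test through ASP+CGP alone and its other 3 pools had means under 6. All 3 lay under the fold minimum after cyclic loess scaling (0.48 for Aurkb, 0.37 for Mybl2 and 0.22 for Birc5), with limma adjusted p of 0.00262, 0.0335 and 0.0471.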

How the results depend on the processing

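The members' medians and counts were recomputed under each alternative, and the calls were 0 in every comparison after cyclic loess scaling and with a 1.8-fold minimum. Cyclic loess moved the median of all genes to 0.01 in ASP against CON (-0.10 as deposited) and to -0.01 in ASP+CGP against CON (-0.17). The members' medians were then -0.1029 in ASP against CON, -0.0408 in ASP+CGP against CON, 0.073 in ASP+CGP against ASP, -0.0219 in ASP+CGP against CGP and 0.092 for the interaction, and Cdc23 in ASP against CON turned to 0.0981. That scaling called 12.1% of all genes higher and 3.01% lower in ASP, and 4.28% and 3.09% in ASP+CGP. With no fold minimum, 12 members were lower in ASP, 9 higher and 8 lower in ASP+CGP against CON, 20 and 2 against ASP, 11 and 8 against CGP, and 15 and 2 for the interaction.

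With arrays centred on their medians, the members' medians were 0.1595, 0.3283, 0.2159 and 0.3622 in ASP+CGP against CON, against ASP, against CGP and for the interaction, with 3 calls higher against CGP and 7 for the interaction. With a group mean of at least 7, ASP had 1 member lower, and the medians were -0.0146, 0.0556 and 0.2447 in ASP+CGP against CON, against CGP and for the interaction. With no filter the median in ASP+CGP against CON was 0.1088, and with array weights 1 member was lower there. Leaving out each array gave 1 to 3 members lower in ASP. In ASP+CGP against CON it gave 0 to 2 higher, 0 to 1 lower and medians of 0.0246 to 0.1102. Against ASP it gave 2 to 4 higher and medians of 0.225 to 0.2817, against CGP 0 to 2 higher, and for the interaction 2 to 6. The cause was not tested for any of these shifts.

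The replicate block left the 2 members lower in ASP and changed no call. The arrays share only a number, as same-number deviations correlated at -0.15 to 0.379 and 5 of 12 arrays correlated best with their own number. The fit on the pools of a comparison alone was not run for the interaction, which needs all 4. Signals near the floor limit Mki67, Birc5 and Kif20a.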
